A study of Homo sapiens with 12 samples.

Results

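The ERBB receptors and the EGF family of ligands were examined in 2 pancreatic ductal adenocarcinoma (PDAC) cell lines, PANC-1, which the study uses as basal-like, and HPAF-II, which it uses as classical. The genes were chosen by symbol: the 4 receptors EGFR, ERBB2, ERBB3 and ERBB4, and the 6 ligands EGF, TGFA, AREG, EREG, HBEGF and BTC. Each symbol matched 1 row of the deposited tables, so that all 10 genes were found among the 48114 genes listed. PANC-1 cells received a control siRNA (siCtrl), siRNAs against the splicing regulator QKI (siQKI) or siRNAs against the splicing regulator RBFOX2 (siRBFOX2). They were collected after 48 h, and HPAF-II cells carry the label of the control siRNA and the same time. The siRNA dose listed was 40 nM for siQKI and siRBFOX2 cells, and none is listed for the siCtrl cells of either line. There were 3 libraries in each of the 4 groups. Each group comes from 1 established cell line, and nothing states whether its libraries came from separate cultures, so p-values measure the spread between libraries.

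The ERBB receptors are tyrosine kinases that signal as pairs at the cell surface. EGFR binds EGF, TGFA, AREG, EREG, HBEGF and BTC, ERBB4 shares EREG, HBEGF and BTC with it, ERBB3 is bound by neuregulins and has little kinase activity of its own, and ERBB2 has no known ligand and acts as the partner of the others. The ligands are made as membrane-bound precursors that metalloproteases release, and the receptors pass their signal to the RAS-MAPK and PI3K-AKT pathways.

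The authors deposited counts per gene, each divided by the size factor of its library, called normalized counts below. The number of sequenced fragments behind them is unknown, and precision was taken from the replicates. Changes are log2 fold changes of normalized counts with 1 added, tested with limma in a fit of all 9 PANC-1 libraries, and a gene was called when its p-value, adjusted by the Benjamini-Hochberg method over 22544 genes, was under 0.05. The targeted genes checked the labels. QKI was at 25533 ± 869 normalized counts in siCtrl and 5034 ± 412 in siQKI libraries (SD, n = 3), and RBFOX2 was at 15429 ± 76.8 in siCtrl and 2095 ± 352 in siRBFOX2 libraries. In siQKI libraries RBFOX2 also fell, to 12642 ± 129 (log2 fold change -0.29, limma adjusted p = 0.021), a call that was lost without siCtrl replicate 2 or 3 or without siQKI replicate 1 or 3 (adjusted p from 0.051 to 0.059), after upper-quartile rescaling (0.066), and without the mean-variance trend of the fit (0.11). All 5 ductal epithelial markers (KRT7, KRT8, KRT18, KRT19, EPCAM) had a mean of at least 10 in every group, and on counts rescaled to a total of 1000000 per library their sum ran from 2129 to 2706 in PANC-1 and reached 10736 to 11688 in HPAF-II. In siRBFOX2 libraries KRT8, KRT18 and KRT19 were lower than in siCtrl libraries (log2 fold changes of -0.23, -0.35 and -0.23), and in siQKI libraries KRT18 was (-0.20, limma adjusted p = 0.0072). Of 10 markers of immune, endothelial, fibroblast, acinar and endocrine cells, 6 or 7 were listed at 0 in each group (CD3E, DCN, PRSS1, INS and GCG in all PANC-1 libraries), the summed level was 0.806 to 2.69 rescaled counts, and CD14 was the only member with enough signal in PANC-1 to be tested.

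Silencing of either regulator in PANC-1 cells lowered the RNA of 3 ligands, AREG, EREG and HBEGF, and of EGFR, and raised that of ERBB2. Of the 9 genes with enough signal to be tested, 6 were called in siQKI cells (2 higher, 4 lower) and 5 in siRBFOX2 cells (1 higher, 4 lower). Over all tested genes, 33.0% were called in siQKI cells (14.9% higher, 18.1% lower) and 26.5% in siRBFOX2 cells (12.0% higher, 14.5% lower). The libraries of knockdown and control did not overlap for 7 of the 9 genes in siQKI cells and 5 in siRBFOX2 cells, and for 44.7% and 37.9% of all tested genes. The median log2 fold change of the 9 genes was -0.14 and -0.26, against 0.03 and 0.01 over all tested genes. A fall of at least 1.5-fold was called for AREG, EREG and HBEGF in both knockdowns, 3 of 9 genes, where 3.16% of all tested genes had one in siQKI and 1.62% in siRBFOX2 cells. Among all calls 45.2% were higher in siQKI and 45.3% in siRBFOX2 cells, and 58.0% and 53.5% when libraries were rescaled by their upper quartile, which turned no direction among the called receptors and ligands. The tenth gene, EGF, was listed at 0 in every siCtrl and siQKI library and at 6.31, 46.5 and 0 normalized counts in the siRBFOX2 libraries, which left it under the minimum mean of 10. The control libraries are shared by both comparisons. The measurements are of RNA from whole cultures, in which fewer cells that express a gene and less RNA per cell cannot be told apart.

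**Figure D1:**
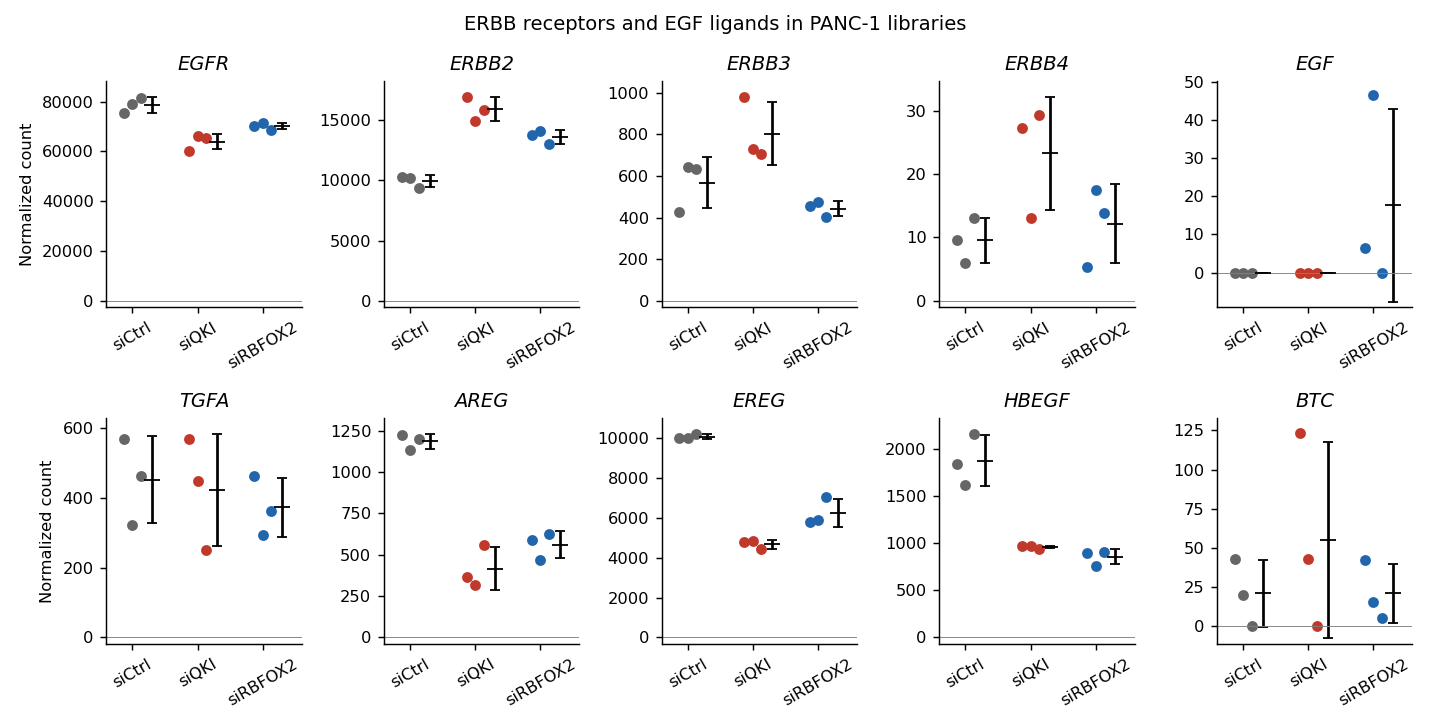
Normalized count (y axis, linear and including 0) of each ERBB receptor and EGF ligand in the 9 PANC-1 libraries; points are libraries, and the bar beside each group gives its mean ± SD (n = 3). AREG, EREG and HBEGF were lower in every library of both knockdowns than in every siCtrl library, ERBB2 was higher, and EGF and BTC had libraries listed at 0.

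EGFR (GSHG0039460 in the files, hg38 chr7:54974225-55256604), the receptor of all 6 ligands, was the most abundant of the receptors in PANC-1. Its normalized counts were 75260, 78926 and 81558 in siCtrl libraries, 60328, 66018 and 65535 in siQKI libraries, and 70332, 71368 and 68726 in siRBFOX2 libraries. The siCtrl libraries were the highest, the siQKI libraries the lowest, and no groups overlapped. The log2 fold change was -0.30 ± 0.04 (SE) in siQKI cells (limma adjusted p = 7.3e-05), which left 81.4% of the control level, and -0.16 ± 0.04 in siRBFOX2 cells (adjusted p = 0.011), which left 89.3%. The siRBFOX2 call was lost without siCtrl replicate 3 (log2 fold change -0.14, limma adjusted p = 0.056) and without the mean-variance trend of the fit (adjusted p = 0.081). The antisense gene EGFR-AS1 lies within the EGFR row, and since strand is not stated their reads may not be separated. At a mean of 84.4 it held 0.119% of the EGFR value.

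ERBB2 (GSHG0018165, chr17:39687914-39728658), the partner receptor without a ligand, moved the other way. The siCtrl libraries were at 10319, 10190 and 9373 normalized counts, the siQKI libraries at 16912, 14937 and 15880, and the siRBFOX2 libraries at 13815, 14132 and 13005. Every knockdown library lay above every control library, and the siQKI libraries above the siRBFOX2 libraries. The log2 fold change was 0.68 ± 0.06 in siQKI cells (limma adjusted p = 3.2e-07), a 1.60-fold rise, and 0.46 ± 0.06 in siRBFOX2 cells (adjusted p = 2.9e-05), a 1.37-fold rise. The ends of the ERBB2 row overlap PGAP3 over 144 bases and MIEN1 over 158 bases. Neither was called in siQKI cells (log2 fold changes -0.23 and 0.02, limma adjusted p = 0.097 and 0.85) or in siRBFOX2 cells (0.11 and 0.11, adjusted p = 0.47 and 0.15).

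ERBB3 (GSHG0009125, chr12:56080103-56103505), the neuregulin receptor, was at a low level in PANC-1 and differed between the knockdowns. Its normalized counts were 428, 642 and 636 in siCtrl libraries, 978, 731 and 704 in siQKI libraries, and 453, 473 and 403 in siRBFOX2 libraries. The siQKI libraries lay above all others, and the siRBFOX2 libraries overlapped the siCtrl libraries. The rise in siQKI cells was called by a narrow margin (log2 fold change 0.51 ± 0.19, limma adjusted p = 0.047), and 9 of 17 alternatives lost the call, with an adjusted p of up to 0.21 without siCtrl replicate 1 or siQKI replicate 1. It was also lost without siQKI replicate 2 or siRBFOX2 replicate 1 or 3 (adjusted p = 0.065, 0.055 and 0.0501). The siRBFOX2 value was not called (-0.34 ± 0.19, limma adjusted p = 0.21), except without siCtrl replicate 1 (-0.53, adjusted p = 0.045). Directly compared, ERBB3 was higher in siQKI than in siRBFOX2 cells, by 0.85 ± 0.19 (limma adjusted p = 0.0038), and this call held under all 17 alternatives.

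ERBB4 (GSHG0026279, chr2:211375717-212538802), a receptor with ligands of both families, was near the limit of what the files list. It was at 9.57, 6.0 and 13.1 normalized counts in siCtrl libraries, 27.4, 13.1 and 29.4 in siQKI libraries and 5.26, 17.4 and 13.9 in siRBFOX2 libraries. The lowest siQKI library was barely above the highest siCtrl library, and the siRBFOX2 libraries overlapped both. No difference was called (limma adjusted p = 0.36 and 0.88), and the 95% confidence interval of the siQKI change ran from -0.72 to 3.08. That interval includes large rises but no fall beyond -0.72, and the siRBFOX2 interval ran from -1.66 to 2.14.

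**Figure D2:**
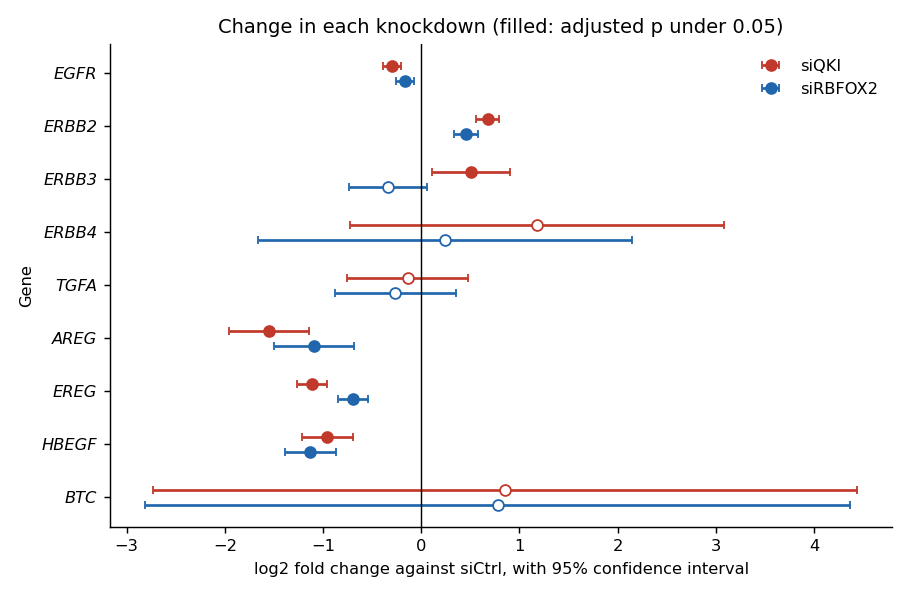
Log2 fold change against siCtrl (x axis, normalized counts with 1 added) of the 9 tested receptors and ligands in siQKI (red) and siRBFOX2 (blue) cells, with 95% confidence intervals from limma; filled points have an adjusted p under 0.05. AREG, EREG and HBEGF lie to the left of 0 in both knockdowns and ERBB2 to the right. The intervals of ERBB4, TGFA and BTC include 0, as does that of ERBB3 in siRBFOX2 cells.

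AREG (GSHG0032688, chr4:74445132-74455010) encodes amphiregulin, and EREG (GSHG0032687, chr4:74365143-74388760) encodes epiregulin. The genes are neighbours on chromosome 4, 56.4 kb apart in the files. AREG had the largest change of the called genes in siQKI cells. Its normalized counts were 1222, 1134 and 1199 in siCtrl libraries, 366, 319 and 562 in siQKI libraries and 588, 469 and 626 in siRBFOX2 libraries. The control libraries lay above all knockdown libraries, and the knockdowns overlapped each other. AREG fell by 1.55 ± 0.19 on the log2 scale in siQKI cells (limma adjusted p = 1.5e-05), to 35.1% of the control, and by 1.09 ± 0.19 in siRBFOX2 cells (adjusted p = 0.00058), to 47.3%.

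EREG was the most abundant of the ligands in PANC-1. Its libraries were at 10004, 10005 and 10214 normalized counts in siCtrl, 4783, 4825 and 4416 in siQKI, and 5780, 5885 and 7068 in siRBFOX2. The groups were fully separated, with siQKI lowest and siRBFOX2 between. EREG fell by 1.11 ± 0.07 on the log2 scale in siQKI cells (limma adjusted p = 2.2e-08), to 46.4% of the control, and by 0.70 ± 0.07 in siRBFOX2 cells (adjusted p = 4.4e-06), to 62.0%.

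HBEGF (GSHG0035825, chr5:140332843-140349342) encodes heparin-binding EGF-like growth factor. The siCtrl libraries held 1839, 1619 and 2156 normalized counts, the siQKI libraries 968, 967 and 940, and the siRBFOX2 libraries 893, 761 and 904. Here the siRBFOX2 libraries were the lowest, and both knockdowns lay below the control. HBEGF fell by 0.95 ± 0.12 on the log2 scale in siQKI cells (limma adjusted p = 1.9e-05), to 51.2% of the control, and by 1.13 ± 0.12 in siRBFOX2 cells (adjusted p = 6.6e-06), to 45.6%. For AREG, EREG and HBEGF the calls in both knockdowns held under all 17 alternatives.

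The promoter sequences of the 3 ligands that fell and of ERBB2, which rose, are shown because these genes had the largest changes called in both knockdowns. EGFR, called in both with smaller changes, has 2 entries in the table, which are not printed. They are RefSeq windows of 300 bases on GRCh38.p14, from 250 before to 50 after the start, printed 5′ to 3′ on the strand of the gene. AREG is at chr4:74444886-74445185 (plus strand), EREG at chr4:74364895-74365194 (plus strand), HBEGF at chr5:140346554-140346853 (minus strand) and ERBB2 at chr17:39687844-39688143 (plus strand). The ERBB2 window overlaps the PGAP3 row (chr17:39671122-39688057) and is the only one listed for this gene, so any other start of ERBB2 is not shown. Capitals mark matches, on either strand, to a TATA box (TATAAA), a cAMP response element (CRE, TGACGTCA), an AP-1 site (TGANTCA, where N is any base) or a GC box (GGGCGG, whose matches may overlap one another).
AREG: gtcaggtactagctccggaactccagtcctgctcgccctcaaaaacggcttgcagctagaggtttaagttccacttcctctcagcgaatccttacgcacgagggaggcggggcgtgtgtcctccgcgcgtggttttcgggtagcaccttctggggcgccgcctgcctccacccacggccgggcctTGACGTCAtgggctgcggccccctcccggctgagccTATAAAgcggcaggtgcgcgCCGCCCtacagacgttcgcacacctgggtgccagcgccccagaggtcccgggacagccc
EREG: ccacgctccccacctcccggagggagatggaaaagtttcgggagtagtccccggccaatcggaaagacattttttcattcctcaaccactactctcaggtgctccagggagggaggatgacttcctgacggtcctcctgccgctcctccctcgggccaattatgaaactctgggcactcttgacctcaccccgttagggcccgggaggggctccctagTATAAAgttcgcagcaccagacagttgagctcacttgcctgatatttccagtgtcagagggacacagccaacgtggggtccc
HBEGF: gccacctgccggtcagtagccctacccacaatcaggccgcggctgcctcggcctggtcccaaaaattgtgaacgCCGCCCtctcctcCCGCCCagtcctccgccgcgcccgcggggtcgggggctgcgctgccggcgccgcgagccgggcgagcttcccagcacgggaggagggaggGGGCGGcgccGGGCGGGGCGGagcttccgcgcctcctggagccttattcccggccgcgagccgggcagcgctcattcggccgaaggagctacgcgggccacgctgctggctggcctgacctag
ERBB2: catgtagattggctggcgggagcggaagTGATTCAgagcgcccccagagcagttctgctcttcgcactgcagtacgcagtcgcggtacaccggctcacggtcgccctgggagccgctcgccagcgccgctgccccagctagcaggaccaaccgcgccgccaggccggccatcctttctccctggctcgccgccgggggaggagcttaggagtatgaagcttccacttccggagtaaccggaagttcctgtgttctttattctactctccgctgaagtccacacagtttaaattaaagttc
The TATA box letters begin 29 bases before the start in AREG and 32 before it in EREG, and 11.5% of the 35116 promoters of the table hold them. The CRE of AREG begins 65 bases before the start, and 1.85% of all promoters hold these letters. HBEGF has neither and holds 5 GC boxes, which occur in 45.0% of all promoters, and ERBB2 holds 1 AP-1 site, which occurs in 7.71%. No set of these letters was shared by all 3 ligands that fell. The table matched 9 of the 10 genes, without ERBB3.

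Sequences bound by the silenced proteins were counted in the longest protein-coding GENCODE release 29 transcript of each gene. QKI binds RNA at sites around ACTAAC or ACTAAT and RBFOX2 at TGCATG, written here as DNA. Over the 14138 tested genes with such a transcript, 47.1% held at least 1 of the QKI letters and 55.7% the RBFOX letters. Genes not called in either knockdown held matches too: TGFA 2 QKI, BTC 1 QKI, and ERBB4 5 QKI and 4 RBFOX matches. The untested EGF held 1 QKI and 4 RBFOX matches. EGFR, called in both knockdowns, held 2 RBFOX matches and no QKI match, and ERBB3 held 1 RBFOX match. AREG and ERBB2 held neither. EREG held 1 QKI and 2 RBFOX matches in 4619 bases, and HBEGF held 1 QKI match in 2386 bases. These 4 sites of the ligands that fell are shown with the motif in capitals.
EREG, QKI letters, 3′ UTR, chr4:74385737-74385742: tttgatggACTAATtattattt
EREG, RBFOX letters, coding exon 3, chr4:74381089-74381094: ctattgttTGCATGgacagtgc
EREG, RBFOX letters, 3′ UTR, chr4:74388529-74388534: agttgtatTGCATGcaatttga
HBEGF, QKI letters, coding sequence, minus strand, chr5:140334685-140334690: tgggcatgACTAATtcccactg
A match is a description of the letters and not a bound site, and introns were not searched.

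TGFA and BTC did not pass the test. TGFA (GSHG0025436, chr2:70447284-70553826), transforming growth factor alpha, was at 570, 322 and 464 normalized counts in siCtrl libraries, 569, 447 and 252 in siQKI libraries and 462, 293 and 363 in siRBFOX2 libraries. The groups overlapped throughout. The 95% confidence interval of its log2 fold change was -0.75 to 0.48 in siQKI cells (limma adjusted p = 0.77) and -0.88 to 0.35 in siRBFOX2 cells (adjusted p = 0.57). The lower end of both intervals lies short of the HBEGF estimate in the same cells. The intervals of TGFA and HBEGF still overlap, with HBEGF at -1.21 to -0.70 in siQKI and -1.38 to -0.87 in siRBFOX2 cells. Whether TGFA differs from the ligands that fell was not tested. BTC (GSHG0033540, chr4:74744759-74794619), betacellulin, was at 43.1, 20.0 and 0 in siCtrl, 123, 42.7 and 0 in siQKI and 42.1, 15.5 and 5.56 in siRBFOX2 libraries, with intervals from -2.73 to 4.44 and from -2.81 to 4.36 (limma adjusted p = 0.76 and 0.79).

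Set directly against each other, siQKI and siRBFOX2 cells differed in 4 of the 9 tested genes (2 higher, 2 lower in siQKI cells), where 21.5% of all tested genes did (9.93% higher, 11.6% lower). The libraries of the knockdowns were separated for 5 of the 9 genes and for 35.2% of all tested genes. ERBB2 and ERBB3 were higher in siQKI cells (log2 differences 0.22 ± 0.06 and 0.85 ± 0.19), and EREG and EGFR were lower (-0.41 ± 0.07 and -0.13 ± 0.04), with limma adjusted p = 0.011, 0.0038, 0.00059 and 0.038. Only 2 calls were left, ERBB3 and EREG, without siQKI replicate 1. The EGFR difference was lost in 8 of 17 alternatives, among them those without siCtrl replicate 2, siQKI replicate 1 or 3, or siRBFOX2 replicate 1 or 2 (adjusted p from 0.0502 to 0.17). The ERBB2 difference was lost in 3, among them those without siQKI replicate 1 or siRBFOX2 replicate 3 (adjusted p = 0.057 and 0.0504). AREG was lower in siQKI cells by 0.46 ± 0.19, which was not called (limma adjusted p = 0.10), but was without siQKI replicate 3 (-0.70, adjusted p = 0.0094), the library with the highest AREG of its group. The interval of the HBEGF difference was -0.08 to 0.43 (limma adjusted p = 0.36).

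To compare levels between genes, rescaled counts were divided by the merged exon length of each gene in GENCODE release 29. For ERBB2 this length is 10321 bases, where the longest coding transcript has 4792, and for EREG it is 5717 against 4619. Orders and shares per kb therefore depend on the length used. On this scale, per kb of exon, the PANC-1 siCtrl order was EGFR (18.2 ± 0.574, SD, n = 3), EREG (5.12 ± 0.083), ERBB2 (2.81 ± 0.16), AREG (2.09 ± 0.11), HBEGF (1.80 ± 0.26), TGFA (0.265 ± 0.076), ERBB3 (0.182 ± 0.037), BTC, ERBB4 and EGF. The libraries of AREG and HBEGF, of TGFA and ERBB3, and of BTC and ERBB4 overlapped, and on these lengths all other neighbours in this order were separated. The separation of EREG from ERBB2 and the share of ERBB2 among the receptors depend on the length used. Added up per kb, the 6 ligands stood at 9.30 ± 0.48 in siCtrl, 4.52 ± 0.081 in siQKI and 5.44 ± 0.46 in siRBFOX2 libraries. The sums of the 3 groups ran from 8.75 to 9.62, from 4.46 to 4.61 and from 5.09 to 5.96, without overlap. EREG made up 55.1% of the sum in siCtrl, 54.8% in siQKI and 60.7% in siRBFOX2 libraries. The receptor sum was 21.2 ± 0.44, 20.4 ± 0.64 and 21.1 ± 0.93 and overlapped between all groups, while the share of ERBB2 in it was 13.2% in siCtrl, 22.9% in siQKI and 19.0% in siRBFOX2 libraries.

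**Figure D3:**
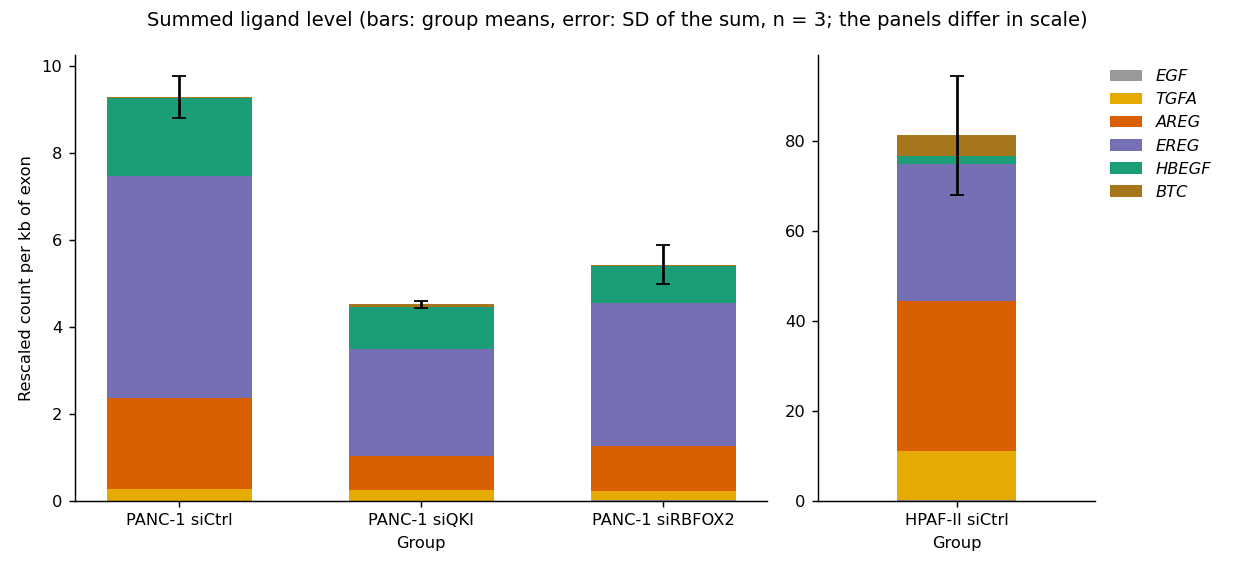
Summed level of the 6 ligands (y axis, rescaled count per kb of exon; the HPAF-II panel has its own scale), stacked by ligand as group means, with the SD of the sum over 3 libraries. The PANC-1 sum was 9.30 in siCtrl, 4.52 in siQKI and 5.44 in siRBFOX2 libraries, mostly EREG, and the HPAF-II sum was 81.2, mostly AREG and EREG.

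HPAF-II cells differed from PANC-1 cells in both the receptors and the ligands. The tables of the 2 lines were taken as normalized apart, so the lines were compared on rescaled counts, without a test. A difference between the lines cannot be told apart from one between the series of libraries. Of the 8 genes listed above 0 in both lines, 7 were at least 2-fold apart (6 higher in HPAF-II, 1 lower), where 52.4% of 24673 genes were at least 2-fold apart (27.2% higher in HPAF-II, 25.2% lower). For 9 of the 10 genes the libraries of the lines were fully separated, as they were for 63.7% of the 24673 genes. Those 24673 genes had a mean of at least 10 in either line and include genes listed at 0 in 1 line. ERBB4, counted among the 9, is under that mean (9.55 normalized counts in PANC-1 siCtrl libraries). QKI itself was at 15.6, 16.5 and 11.3 rescaled counts in HPAF-II and at 76.5, 70.5 and 75.7 in PANC-1 siCtrl libraries. The median log2 ratio of the 8 genes was 3.59, and 0.08 over the 24673 genes.

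Among the receptors, EGFR was lower in HPAF-II, with 92.5 ± 13.8 rescaled counts against 228 ± 7.19 in PANC-1 (2.47-fold). ERBB2 was higher, with 265 ± 32.4 against 28.96 ± 1.68 (9.16-fold), and so was ERBB3, with 122 ± 17.2 against 1.65 ± 0.33 (73.6-fold, a log2 ratio of 6.20, or 5.54 with a pseudocount of 1). ERBB4 was listed at 0 in all HPAF-II libraries. EGFR led the receptors per kb of exon in PANC-1, with 85.9% of their sum, and ERBB2 in HPAF-II, with 55.2%, followed by ERBB3 with 28.99% and EGFR with 15.8%.

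The ligands other than HBEGF were higher in HPAF-II. AREG was at 53.0, 69.8 and 41.7 rescaled counts in the HPAF-II libraries and at 3.61, 3.26 and 3.47 in the PANC-1 siCtrl libraries (15.9-fold), and EREG at 153, 201 and 168 against 29.5, 28.7 and 29.6 (5.94-fold). TGFA was at 50.6, 54.9 and 57.9 against 1.68, 0.924 and 1.34 (41.1-fold, a log2 ratio of 5.36, or 4.58 with a pseudocount of 1). All HPAF-II libraries lay far above all PANC-1 libraries for these 3 ligands. BTC was at 13.2 ± 2.13 in HPAF-II, and in PANC-1 at 0.127 and 0.0574 in 2 libraries and listed at 0 in the other, so that its ratio depends on the pseudocount. EGF was at 0.671, 1.504 and 0.523 in HPAF-II and listed at 0 in PANC-1. HBEGF was at 5.04 ± 1.26 against 5.44 ± 0.80 and its libraries overlapped. Per kb of merged exon, AREG (33.3 ± 8.58) and EREG (30.4 ± 4.28) led in HPAF-II, with libraries that overlapped each other, and ERBB2 (25.7 ± 3.14) overlapped EREG. The place of ERBB2 in this order depends on the length used.

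**Figure D4:**
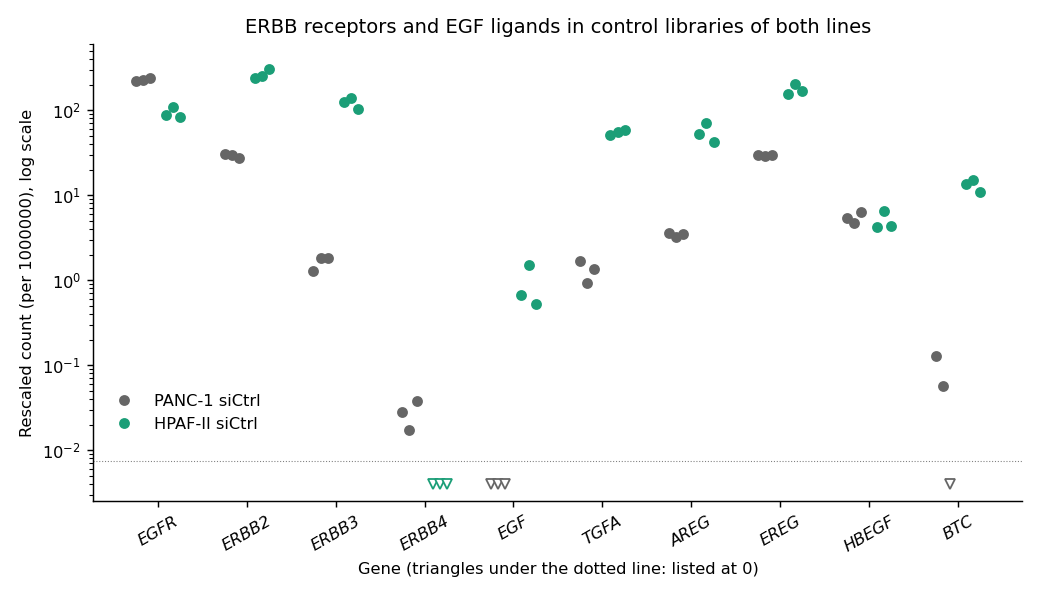
Rescaled count (y axis, log scale, per 1000000) of the 10 genes in the 3 siCtrl libraries of PANC-1 (grey) and of HPAF-II (green); points are libraries, and open triangles are libraries listed at 0. EGFR is the only gene with all HPAF-II libraries above 0 and below PANC-1, HBEGF overlaps, and ERBB2, ERBB3, EGF, TGFA, AREG, EREG and BTC are higher in HPAF-II.

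The other members of the ligand family showed a different division between the lines. NRG1, a neuregulin that binds ERBB3 and ERBB4, was at 28.8 ± 2.87 rescaled counts in PANC-1 siCtrl libraries and listed at 0 in all HPAF-II libraries, and NRG2 was at 22.1 ± 0.91 in PANC-1 and 0.128 ± 0.029 in HPAF-II. The line with these neuregulins was the one with little ERBB3 RNA. Of the 5 other EGF family ligands 3 were tested in PANC-1. NRG2 fell in both knockdowns (log2 fold changes -0.23 and -0.40, limma adjusted p = 0.0045 and 7.0e-05). NRG1 was at 9918 ± 1020 normalized counts in siCtrl, 10086 ± 695 in siQKI and 12442 ± 913 in siRBFOX2 libraries, a rise in siRBFOX2 cells (0.33 ± 0.07, limma adjusted p = 0.0039), lost without the mean-variance trend (adjusted p = 0.055). The siQKI value was 0.03 with an interval of -0.13 to 0.19. EPGN and NRG3 were too low to test, and NRG4 was not called.

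Of 7 genes that release the ligands or take part in their release, 3 were called higher and 1 lower in siQKI cells. Over all tested genes 14.9% were called higher and 18.1% lower. In siRBFOX2 cells 4 were called higher and none lower, where 12.0% and 14.5% of all tested genes were, with medians of 0.09 and 0.22 against 0.03 and 0.01 over all tested genes. ADAM17, the main protease that sheds AREG, EREG, HBEGF and TGFA, was at 5612, 5920 and 5705 normalized counts in siCtrl, 7111, 7613 and 7498 in siQKI and 8200, 8724 and 8536 in siRBFOX2 libraries. It was higher in every knockdown library than in any control (log2 fold changes 0.37 ± 0.05 and 0.56 ± 0.05, limma adjusted p = 5.9e-05 and 1.8e-06). ADAM15, another metalloprotease, went in opposite directions, down by 0.27 in siQKI and up by 0.22 in siRBFOX2 cells (limma adjusted p = 0.0038 and 0.021), and it was lower in siQKI than in siRBFOX2 cells by 0.49 ± 0.06 (adjusted p = 5.6e-05). The siRBFOX2 rise of ADAM15 was lost without siCtrl replicate 1 or siRBFOX2 replicate 1 or 3 (adjusted p from 0.074 to 0.10), or without the trend (0.11).

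Adaptors and signal transducers were called in both directions. Of 25 genes, 14 were called in siQKI cells (5 higher, 9 lower) and 13 in siRBFOX2 cells (4 higher, 9 lower), where 33.0% and 26.5% of all tested genes were called, and their medians were -0.05 in both knockdowns. GAB1, a docking protein that links the receptors to PI3K, rose from 380 ± 78.0 to 858 ± 239 normalized counts in siQKI cells (log2 fold change 1.15 ± 0.25, limma adjusted p = 0.0023). In siRBFOX2 cells it was at 615 ± 224, which was not called (adjusted p = 0.071). PTPN11, the phosphatase SHP2 that GAB1 recruits, fell by 0.53 ± 0.05 on the log2 scale in siQKI cells (limma adjusted p = 7.7e-07) and by 0.17 in siRBFOX2 cells (adjusted p = 0.016), the latter lost without siCtrl replicate 3 or siRBFOX2 replicate 1 (adjusted p = 0.081 and 0.061), or without the trend (0.092). GRB2, the adaptor that brings SOS to the receptors, fell in both (log2 fold changes -0.29 and -0.41, limma adjusted p = 4.2e-05 and 2.4e-06).

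Genes that restrain the receptors or take them off the surface also moved both ways. Of 13, 6 were called in siQKI cells (3 higher, 3 lower) and 5 in siRBFOX2 cells (2 higher, 3 lower), or 3 after rescaling by the upper quartile, and the medians were 0.00 and -0.03. With 33.0% and 26.5% of all tested genes called, these shares lie near the background. ERRFI1, an inhibitor of the EGFR kinase, was at 244448 ± 5951 normalized counts in siCtrl libraries and fell to 186750 ± 3654 in siQKI and 175396 ± 3822 in siRBFOX2 libraries (log2 fold changes -0.39 and -0.48, limma adjusted p = 7.8e-07 and 2.1e-07). SOCS5, which promotes degradation of EGFR, rose from 6143 ± 634 to 10067 ± 449 and 9945 ± 457 (0.72 and 0.70, limma adjusted p = 1.2e-06 and 2.9e-06). EPS15, an adaptor of EGFR endocytosis, fell from 13453 ± 872 to 8817 ± 290 in siQKI cells (-0.61 ± 0.05, limma adjusted p = 7.1e-07). Its fall in siRBFOX2 cells (-0.16, adjusted p = 0.043) was lost in 11 of 17 alternatives (adjusted p of 0.0506 to 0.20 when siCtrl replicate 1 or 3, siQKI replicate 2 or 3, or siRBFOX2 replicate 1 or 3 was left out).

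**Figure D5:**
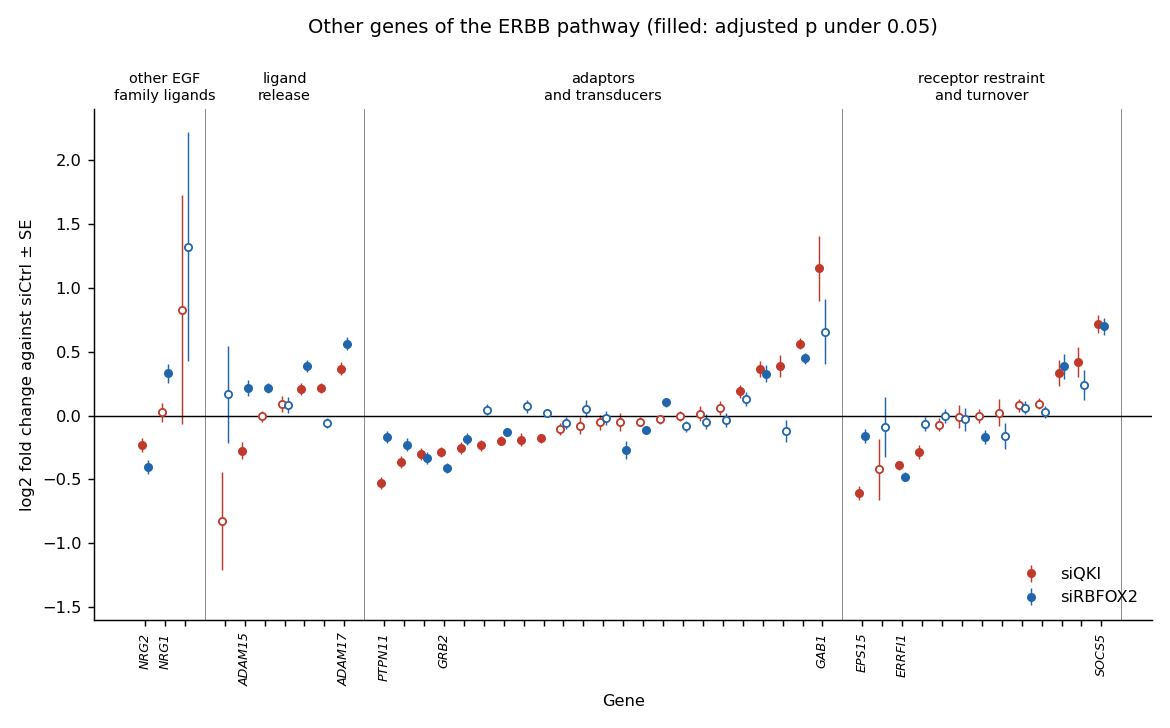
Log2 fold change against siCtrl (y axis, normalized counts with 1 added) ± SE of the tested genes reported here from 4 further lists of the ERBB pathway, in siQKI (red) and siRBFOX2 (blue) cells; filled points have an adjusted p under 0.05, and genes described in the text are named. ADAM17 and SOCS5 are higher and GRB2 and ERRFI1 lower in both knockdowns, and GAB1 is the highest called point.

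Across the 9 PANC-1 libraries, the genes whose log2 values were most like those of AREG by Pearson's r were CCDC59 (r = 0.98), AP1AR (r = 0.98) and NSMCE2 (r = 0.98). The 9 libraries share the 3 groups, so that any gene that falls in both knockdowns is alike in this sense. Their changes were smaller than that of AREG, with log2 fold changes of -0.39, -0.37 and -0.49 in siQKI cells and -0.27, -0.28 and -0.34 in siRBFOX2 cells.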

How the data were processed

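RNA was measured by polyA-selected paired-end sequencing in 12 libraries. The submitters' processing notes name STAR 2.7.5a, SAMtools, Picard, FastQC, DESeq2 and hg38, and the paper names the FAST DB annotation. The paper's list of software also holds featureCounts and another STAR version. Which of these made these files, and whether strand was used, is not given in the sources used here. The deposited signal values are counts per gene after division by DESeq2 size factors, which the authors estimated apart for PANC-1 and HPAF-II. Each value was a whole multiple of a step per library (within 0.01), but 3 divided 82.1% to 84.8% of the low multiples, so no step equals a fragment and no count test was run. Size factors read from the steps were 0.810 to 1.15.

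For PANC-1, log2(value + 1) of 22544 genes (mean of 10 or more) was fitted over 9 libraries with limma 3.58.1 (R 4.3.3, with a mean-variance trend and no block), with Benjamini-Hochberg adjustment and a threshold of 0.05. The fit was tested on simulated data. HPAF-II and PANC-1 siCtrl were compared on values rescaled to 1000000 per library, with a pseudocount of 0.01, for genes with a mean of at least 10 in either line. Alternatives were other pseudocounts, filters and scalings, a fit of 2 groups, a replicate block, no trend, and each library left out. Python 3.11.15 with pandas 2.3.3 and matplotlib 3.10.9 made the summaries.

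The receptors, ligands and pathway lists were chosen with earlier results of these data known. Named from the lists were genes called with at least a 1.5-fold change and the largest rise and fall called in each list and knockdown, and the 3 genes most like the ligand or receptor with the largest change. A gene that this rule names is not reported here.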

Additional observations from a re-analysis of the deposited data

How the results depend on the processing

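Counts of called receptors and ligands stayed within 1.5 times of the reported count in both knockdowns under every alternative run (5 to 6 in siQKI cells and 4 to 6 in siRBFOX2 cells when each library was left out), and 7 genes were at least 2-fold apart between the lines throughout. Between siQKI and siRBFOX2 cells the count of 4 dropped to 2 without the mean-variance trend, and ran from 2 to 4 when libraries were left out. Receptor restraint genes called in siRBFOX2 cells numbered 5, and 3 after upper-quartile rescaling. With a replicate block the counts were 5 in siQKI cells, 5 in siRBFOX2 cells and 4 between them, since the ERBB3 rise in siQKI cells was lost (adjusted p = 0.066), and so was the EPS15 fall in siRBFOX2 cells (adjusted p = 0.0502). Same-numbered libraries did not deviate together (r from -0.032 to 0.023). These values show no pairing by number, but they cannot tell whether such libraries were prepared together. Some results that were not called changed sign when a library was left out, and others kept it. The TGFA log2 fold change ran from -0.39 to 0.20 in siQKI cells (0.05 without siCtrl replicate 1) and from -0.13 to 0.46 between the knockdowns (-0.03 without siRBFOX2 replicate 2). That of BTC ran from -0.79 to 2.92 in siQKI cells (-0.56 without siQKI replicate 1), from -0.86 to 1.87 in siRBFOX2 cells, and from -1.34 to 2.14 between the knockdowns (-0.58 and -0.60 without siQKI replicate 2 and siRBFOX2 replicate 3), and was -0.94 there with a pseudocount of 0.1. That of ERBB4 in siRBFOX2 cells ran from -0.070 to 0.71 (-0.03 without siCtrl replicate 2), and the HBEGF log2 ratio between the lines from -0.33 to 0.00036, the latter without PANC-1 siCtrl replicate 3. The cause was not tested. The BTC log2 ratio between the lines moved from 7.53 to 3.74 with a pseudocount of 1. On the deposited values without rescaling, those of EGFR, ERBB2 and EREG moved from -1.30, 3.20 and 2.57 to -1.58, 2.92 and 2.29. With a minimum mean of 50, ERBB4 and BTC gave no value. The edgeR and DESeq2 alternatives were not run, since whole reads could not be recovered. Depth in fragments is unknown, so ERBB4, EGF and BTC in PANC-1 are limited by their low values.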

Other observations

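The chromosome 4 region around EREG and AREG also holds the CXC chemokine genes, which are chosen here after their values were seen. Of 23 other named genes within 1000 kb of the pair, 13 were tested, and 4 were called lower in siQKI cells and 0 higher (CXCL8, CXCL1, CXCL2 and RCHY1), with limma and an adjusted p under 0.05. In siRBFOX2 cells 4 were called lower (CXCL8, CXCL1, CXCL2 and CXCL5) and 1 higher (RASSF6). The calls of CXCL5 and RASSF6 rest on low values. From siCtrl to siRBFOX2 libraries CXCL5 went from 54.7 ± 33.4 to 14.2 ± 23.0 normalized counts (limma adjusted p = 0.040). RASSF6 went from 32.3 ± 17.7 to 106 ± 41.1 (limma adjusted p = 0.044). The alternatives are not reported for these neighbours. Over all tested genes 18.1% were called lower in siQKI and 14.5% in siRBFOX2 cells, and with 13 genes these counts show no more than the values of the genes named. CXCL8, a neutrophil attractant, fell from 5487 ± 509 normalized counts (SD, n = 3) to 1998 ± 190 in siQKI and 2954 ± 389 in siRBFOX2 libraries (log2 fold changes -1.46 and -0.90, limma adjusted p = 5.4e-08 and 1.3e-05). CXCL1 fell from 17396 ± 1880 to 9478 ± 1134 and 12969 ± 310 (-0.88 and -0.42, limma adjusted p = 8.8e-07 and 0.0013). CXCL2 fell from 1740 ± 597 to 808 ± 76.4 and 1170 ± 187 (-1.06 and -0.53, limma adjusted p = 0.00038 and 0.046). CXCL3, between CXCL1 and CXCL2, was at 723 ± 340, 682 ± 209 and 1075 ± 91.6 and was not called, and neither was BTC on the other side of AREG. In HPAF-II the neighbours did not share 1 direction. CXCL1 was at 7.80 ± 3.49 rescaled counts against 50.6 ± 6.20 in PANC-1, and CXCL5 at 1243 ± 234 against 0.160 ± 0.10, so that CXCL1 was lower in the line with more EREG and CXCL5 higher.

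Among the signal transducers, AKT2 was at 1230 ± 31.0 rescaled counts in PANC-1 siCtrl libraries and 65.1 ± 5.72 in HPAF-II libraries. It is named here after its values were seen. Of the 25 adaptors and transducers, 4 were at least 2-fold higher and 6 at least 2-fold lower in HPAF-II, where 27.2% and 25.2% of 24673 genes were.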
